A study of Mus musculus with 2 samples.

Results

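The enzymes of glycolysis were followed across the cell types of the newborn mouse ovary. The set held 10 genes chosen by name: Slc2a1, Hk1, Gpi1, Aldoa, Tpi1, Gapdh, Pgk1, Eno1, Pkm and Ldha. All 10 were among the 21018 genes present in both count tables. Ovaries of C57BL mice at postnatal day 3 had been dissociated and read with the 10x Genomics 3′ assay in 2 libraries, 1 library per group. For the DEHP_MLT group, mothers were gavaged daily from E16.5 (an embryonic day) with DEHP, a phthalate plasticizer, and were given melatonin (MLT) later on the same days. For the MLT group, mothers received DMSO in place of DEHP and the same melatonin. Melatonin was thus shared by both groups, and neither holds ovaries without it. How many pups went into a library is not stated in the labels.

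The names of the deposited tables conflict with the sample titles, since the table of the sample titled MLT is named DEHP_MLT and the reverse. The titles were followed, and the group field goes with them, reading DEHP for the sample titled DEHP_MLT and NA for the other. Every direction between the libraries given here would reverse if the table names were right. With 1 library per group there is no replicate spread, cells are not replicates, and no test was made. Intervals are exact 95% intervals that cover counting error only.

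The libraries held 4819 kept cells in DEHP_MLT and 5199 in MLT, with a median of 13158 UMIs (unique molecular identifiers, each a counted molecule) per cell in DEHP_MLT and 10905 in MLT. Cells were assigned by summed marker levels to germ cells (718 in DEHP_MLT and 235 in MLT), granulosa (285 and 597), surface (333 and 257), stroma (1755 and 2344), endothelial (99 and 158) and perivascular cells (123 and 190). Of 36 checks with markers that had not set the classes, 34 were highest in their own class. The exception was Amhr2, which was higher in surface than in granulosa cells in both libraries. The MLT library held 1122 cells with fewer than 6923 UMIs, the lowest depth in DEHP_MLT, and 4 barcodes occurred in both libraries. MHC class II genes stood far lower in DEHP_MLT than in MLT in the 5 somatic classes, with median log2 ratios from -6.85 to -5.79. They were lower in germ cells too, with log2 ratios from -4.19 to -2.06, at levels below 0.5 UMIs per 10000. Haemoglobin and Alas2 UMIs together made 60.1 to 128 per 10000 in the 6 classes of DEHP_MLT. In MLT they made 3.38 to 12.5 per 10000 in 5 of the classes and 109.7 in endothelial cells. The summed glycolysis level stayed higher in DEHP_MLT in all 6 classes when mitochondrial, ribosomal protein and haemoglobin genes were left out of the total, with log2 ratios from 0.35 to 0.73.

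Glycolysis turns glucose into pyruvate in the cytosol, and lactate dehydrogenase then interconverts pyruvate and lactate. In the ovary the work is divided between cell types: oocytes of mice use glucose poorly and rely on pyruvate, which granulosa cells make for them by glycolysis. Genes of the pathway are known targets of the hypoxia-inducible factor HIF-1, which binds the core letters ACGTG or GCGTG.

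The promoters of Ldha and Ldhb are shown because germ cells had the lowest level of Ldha and the highest of Ldhb. That of Pgk1 is shown because it was the flattest gene of the set. RefSeq windows of the 250 bases before each start were searched for ACGTG and GCGTG on both strands, on build GRCm38.p6, which is not the mm9 build named in the submitters' processing notes. Capitals mark every match. A CACGTG is a match on both strands and counts at 2 positions.
Ldha, chr7:46845554-46845803, plus strand: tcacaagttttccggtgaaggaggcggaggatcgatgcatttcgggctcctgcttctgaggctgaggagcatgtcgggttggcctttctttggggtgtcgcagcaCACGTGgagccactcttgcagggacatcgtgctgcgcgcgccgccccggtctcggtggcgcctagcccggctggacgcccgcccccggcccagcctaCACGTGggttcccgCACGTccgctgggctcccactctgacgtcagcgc
Pgk1, chrX:106186850-106187099, plus strand: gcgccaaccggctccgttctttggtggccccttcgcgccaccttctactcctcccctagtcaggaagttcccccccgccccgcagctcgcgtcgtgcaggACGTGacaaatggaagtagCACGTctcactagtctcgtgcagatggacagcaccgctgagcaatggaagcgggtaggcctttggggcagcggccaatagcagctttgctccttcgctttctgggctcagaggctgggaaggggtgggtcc
Ldhb, chr6:142507958-142508207, minus strand: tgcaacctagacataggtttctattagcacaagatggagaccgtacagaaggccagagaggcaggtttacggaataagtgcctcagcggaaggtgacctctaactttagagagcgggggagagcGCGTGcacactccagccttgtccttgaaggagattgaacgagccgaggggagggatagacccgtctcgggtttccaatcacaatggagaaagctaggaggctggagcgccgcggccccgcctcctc
The Ldha window shown held ACGTG at 5 positions, while a further RefSeq window of Ldha held no ACGTG and GCGTG at 1 position. ACGTG stood in the Pgk1 window at 2 positions. The Ldhb window held no ACGTG and GCGTG at 1 position. ACGTG was present in 16.6% of all 32851 RefSeq windows, and in 6 of the 17 windows of the 10 glycolysis genes. Of these 6, 2 are overlapping windows of Aldoa that hold the same match. At least 1 of the 2 motifs was present in 38.6% of all windows and in 12 of these 17. The 5 genes with ACGTG in a window were Slc2a1, Aldoa, Pgk1, Pkm and Ldha. A match is a description of the letters and not a binding site.

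Taken over all 10 genes, germ cells and stroma had the lowest levels of the 6 classes and the surface epithelium and granulosa cells the highest. The summed level was 19.9 UMIs per 10000 in germ cells of DEHP_MLT and 15.0 in germ cells of MLT. In surface cells it was 39.4 in DEHP_MLT and 33.6 in MLT, and in granulosa cells 34.3 in DEHP_MLT and 29.9 in MLT. Stroma had 22.6 in DEHP_MLT and 16.0 in MLT. Endothelial cells had 29.4 in DEHP_MLT and 23.2 in MLT, and perivascular cells 30.3 in DEHP_MLT and 19.0 in MLT. The DEHP_MLT value was the higher in each of the 6 classes.

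Individual genes did not share 1 order of cell types, as the plot of levels by class shows. Highest and lowest refer here and below to the 6 classes, without immune and erythroid cells. The glucose transporter Slc2a1 (GLUT1) was highest in endothelial cells, at 0.463 UMIs per 10000 in DEHP_MLT and 0.415 in MLT. In the other 5 classes it was between 0.0549 and 0.113 in DEHP_MLT and between 0.0543 and 0.111 in MLT, with overlapping intervals between neighbours. Hk1, the hexokinase that traps glucose in the cell, was highest in endothelial (0.426 in DEHP_MLT and 0.555 in MLT) and perivascular cells (0.453 and 0.476), whose intervals overlapped. Hk1 was lowest in surface cells, at 0.108 in DEHP_MLT and 0.106 in MLT. Within the 6 classes, the only value of either gene at or above 0.5 was that of Hk1 in endothelial cells of MLT.

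**Figure D1:**
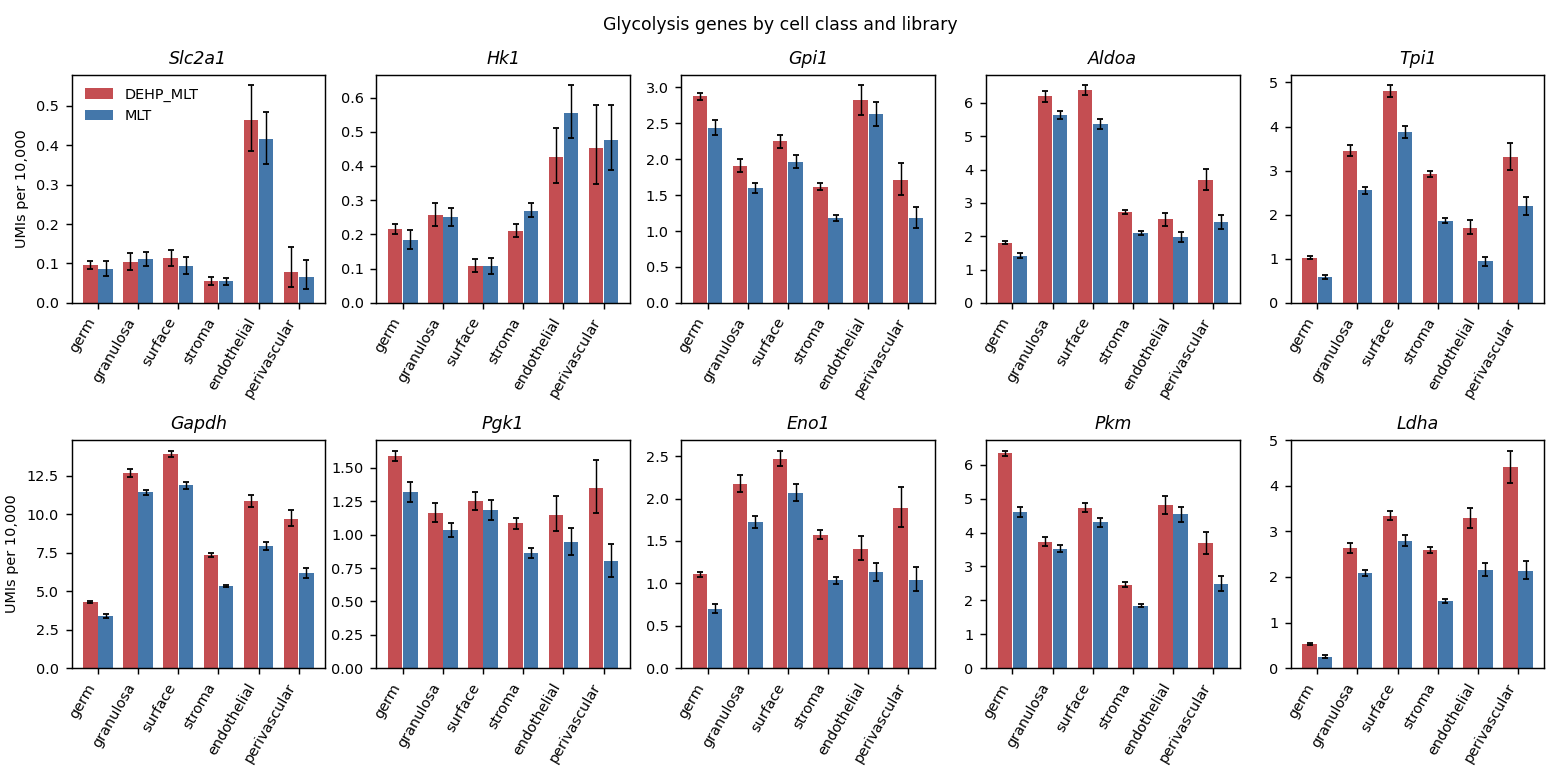
UMIs per 10000 of each glycolysis gene in each cell class, DEHP_MLT (red) beside MLT (blue), with exact 95% counting intervals. The axes differ between panels. Slc2a1 stands highest in endothelial cells, Pkm in germ cells, and Ldha is lowest in germ cells in both libraries.

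Gpi1, which isomerises glucose 6-phosphate, was highest in germ and endothelial cells. It had 2.88 UMIs per 10000 in germ cells of DEHP_MLT and 2.44 in germ cells of MLT, and 2.82 and 2.63 in endothelial cells. Aldolase A (Aldoa), which splits fructose 1,6-bisphosphate, was highest in surface (6.38 in DEHP_MLT and 5.36 in MLT) and granulosa cells (6.20 and 5.64), with overlapping intervals, and lowest in germ cells (1.81 and 1.41). Tpi1, the triose phosphate isomerase, kept the same order of the 6 classes in both libraries: surface, granulosa, perivascular, stroma, endothelial and germ. Its level was 4.80 in surface cells of DEHP_MLT and 3.87 in surface cells of MLT, against 1.02 and 0.583 in germ cells.

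Gapdh, which oxidises glyceraldehyde 3-phosphate, also kept 1 order in both libraries, with no overlap of intervals between neighbours. Surface cells were highest, at 13.9 UMIs per 10000 in DEHP_MLT and 11.9 in MLT, and germ cells lowest, at 4.30 in DEHP_MLT and 3.40 in MLT. Pgk1, the first ATP-yielding step, was the flattest of the 10 genes, with a highest class 1.47 times its lowest in DEHP_MLT and 1.65 times in MLT. Germ cells had its highest level in both libraries, at 1.59 in DEHP_MLT and 1.32 in MLT, with an interval that overlapped that of perivascular cells in DEHP_MLT and of surface cells in MLT. Eno1, an enolase, followed Gapdh in being highest in surface cells (2.47 in DEHP_MLT and 2.07 in MLT) and lowest in germ cells (1.11 and 0.697). Pkm, the pyruvate kinase of most non-liver tissues, was highest in germ cells, at 6.34 in DEHP_MLT and 4.61 in MLT, and lowest in stroma, at 2.46 in DEHP_MLT and 1.85 in MLT. In MLT the germ and endothelial intervals of Pkm overlapped.

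Germ cells divided their glycolysis UMIs among the 10 genes in another way than the somatic classes, in both libraries. Pkm made 31.9% of the glycolysis UMIs in germ cells of DEHP_MLT and 30.7% in those of MLT, and at most 19.5% in any other class of either library. Gapdh made 21.6% in germ cells of DEHP_MLT and 22.7% in those of MLT, and 32.1% to 38.2% elsewhere. Germ over granulosa, at least a 1.5-fold difference the same way in both libraries, 5 genes were lower (Aldoa, Tpi1, Gapdh, Eno1 and Ldha) and 1 was higher (Gpi1), where 28.8% of all genes compared were lower and 38.8% higher. The background is the set of genes at 0.5 UMIs per 10000 or more in at least 1 of the classes compared, in both libraries. Of the 10 genes, 8 reached that level, and Slc2a1 and Hk1 did not. All 6 of the genes that passed the threshold here were among these 8. The median log2 ratio of the 10 was -0.61 in DEHP_MLT and -0.86 in MLT, beside 0.34 and 0.24 over all genes. The call of Gpi1 rests on ratios near the threshold, and the count of higher genes was 0 under 4 of the alternative settings.

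Ldha, the lactate dehydrogenase subunit linked with lactate production, was the gene lowest in germ cells relative to the others. Germ cells had 0.526 UMIs per 10000 in DEHP_MLT and 0.248 in MLT, which is 19.99% of the granulosa level in DEHP_MLT and 11.9% in MLT. Free RNA and mixed droplets can give a cell some UMIs of its neighbours. Gate markers of the 5 somatic classes stood in germ cells at 0.433% to 4.84% of their own-class level in DEHP_MLT and at 0.406% to 3.75% in MLT. These markers also set the classes, and the part of carried-over RNA in the Ldha level was not tested. Outside germ cells Ldha was highest in perivascular cells of DEHP_MLT (4.40) and in surface cells of MLT (2.79).

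Ldhb, the other subunit, ran the opposite way in germ cells. It was the most abundant in germ cells, at 17.0 UMIs per 10000 in DEHP_MLT and 17.9 in MLT, followed by granulosa, surface, stroma, perivascular and endothelial cells, the last at 1.28 in DEHP_MLT and 2.01 in MLT. This order was the same in both libraries and no neighbouring intervals overlapped. Ldha made 3.00% of the Ldha and Ldhb UMIs in germ cells of DEHP_MLT and 1.36% in those of MLT. It made 31.5% in granulosa cells of DEHP_MLT and 17.3% in those of MLT, 40.2% and 32.3% in surface cells, 45.6% and 29.1% in stroma, 64.1% and 40.3% in perivascular cells, and 72.0% and 51.7% in endothelial cells. Shares of UMIs in a 3′ assay do not scale with transcript length, and are compared here between classes. In each of the 6 classes the Ldha share was higher in DEHP_MLT, with intervals that did not overlap.

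**Figure D2:**
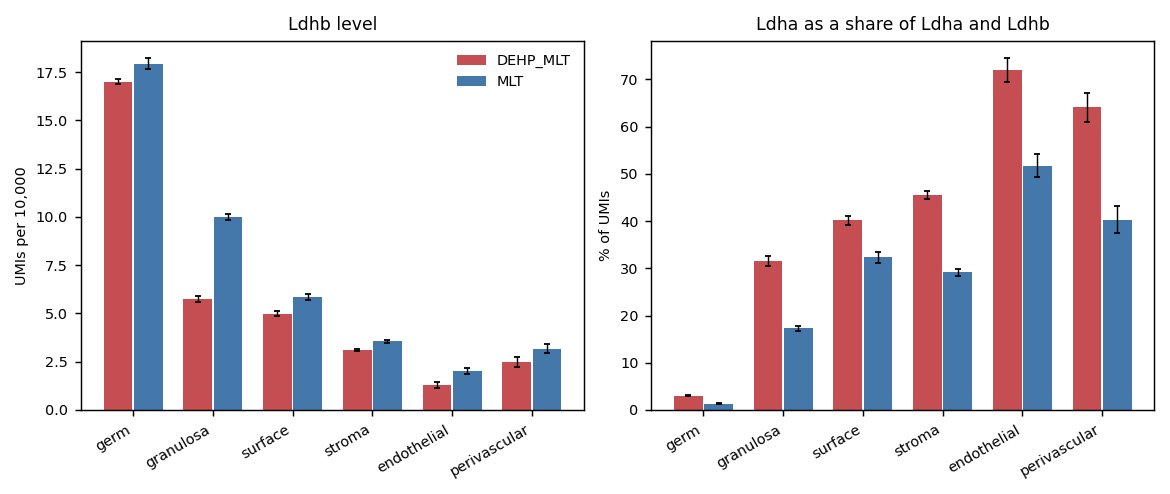
Left, UMIs of Ldhb per 10000 by cell class. Right, Ldha as a percentage of Ldha and Ldhb UMIs, with exact Clopper-Pearson 95% intervals. DEHP_MLT is red and MLT blue. Ldhb runs from 17.0 and 17.9 in germ cells down to 1.28 and 2.01 in endothelial cells, and the Ldha share is the higher in DEHP_MLT in every class shown.

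The other isozymes separated the same cell types. Hk1 made 98.3% of Hk1 and Hk2 UMIs in endothelial cells of DEHP_MLT and 98.1% in those of MLT, but 33.2% and 28.3% in surface cells, where Hk2 had 0.219 UMIs per 10000 in DEHP_MLT and 0.270 in MLT. Slc2a3, the high-affinity transporter GLUT3, was highest in perivascular cells, at 0.704 in DEHP_MLT and 0.355 in MLT, so that Slc2a1 made 10.1% of Slc2a1 and Slc2a3 UMIs there in DEHP_MLT and 15.6% in MLT. In germ cells that share was 92.6% in DEHP_MLT and 92.0% in MLT. Pfkp, a phosphofructokinase, was highest in endothelial cells, at 0.261 in DEHP_MLT and 0.436 in MLT. Aldoa made at least 95.2% of the Aldoa and Aldoc UMIs and Eno1 at least 91.4% of the Eno1, Eno2 and Eno3 UMIs in each class. Bpgm, which makes 2,3-bisphosphoglycerate, was highest in germ cells, at 2.46 in DEHP_MLT and 2.67 in MLT, and no other class exceeded 0.559. Pgam1, the phosphoglycerate mutase, was lowest in germ cells, at 0.592 in DEHP_MLT and 0.509 in MLT.

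Endothelial cells over stroma, 4 of the 10 genes were at least 1.5-fold higher in both libraries (Slc2a1, Hk1, Gpi1 and Pkm) and 1 was lower (Tpi1), with 18.6% of all genes higher and 18.6% lower. Slc2a1 was below the background level. Hk1 reached it only in MLT (0.555 in endothelial cells) and was not counted. Among the 8 genes counted, 2 were higher and 1 was lower. Slc2a1 was 2.87 higher on the log2 scale in DEHP_MLT and 2.73 higher in MLT. Perivascular cells over stroma, Hk1 alone passed the threshold, and 0 of the 8 genes at the background level passed it in either direction, where 7.89% of all genes were higher and 4.70% lower. Perivascular cells carried stroma markers at 33.8% of the stroma level in DEHP_MLT and 48.7% in MLT, and the part of this in the comparison was not tested. Germ over stroma, 2 genes were higher (Gpi1 and Pkm) and 3 lower (Tpi1, Gapdh and Ldha), against 42.5% and 27.5% of all genes, and these 5 were all among the 8. Surface over granulosa cells, no gene was higher and 1, Hk1, was lower. Of the 8 genes at the background level 0 were higher and 0 lower, against 10.5% and 13.9% of all genes. Surface cells carried granulosa markers at 15.4% of the granulosa level in DEHP_MLT and 11.1% in MLT.

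**Figure D3:**
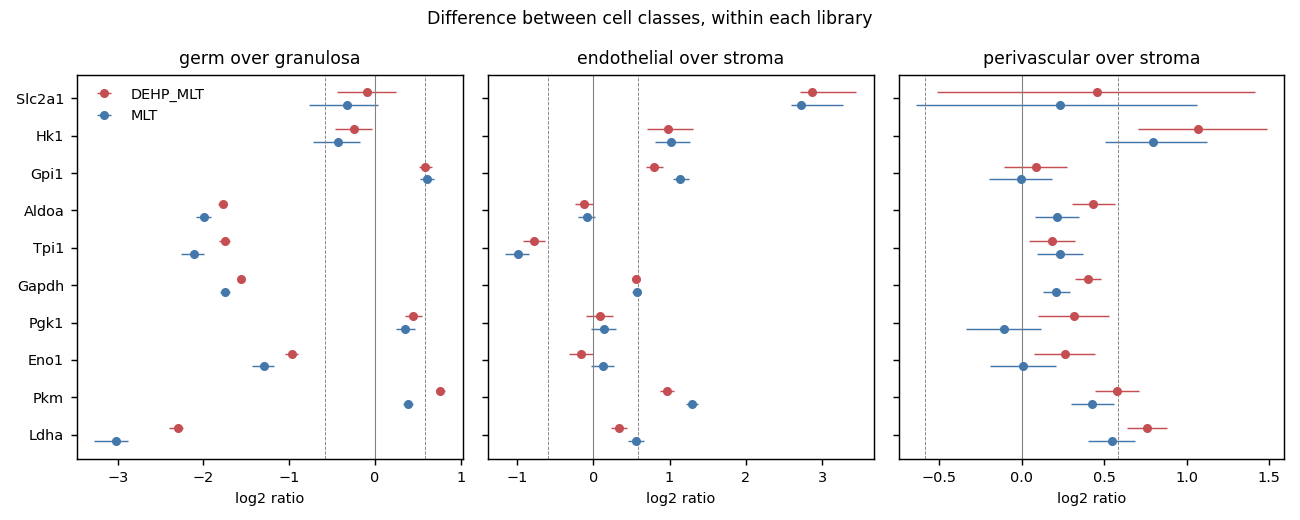
Log2 ratios of the 10 genes between cell classes within each library, DEHP_MLT in red above MLT in blue, with 95% counting intervals. Dashed lines mark 1.5-fold. Ldha is the lowest gene in germ over granulosa and Slc2a1 the highest in endothelial over stroma, in both libraries.

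Between the libraries, the glycolysis genes were higher in DEHP_MLT in nearly every class. Of the 60 log2 ratios (10 genes in 6 classes), 56 were above 0 and 4 below, and the counting interval lay above 0 in 45 and below 0 in 2. Over all genes the median log2 ratio was below 0 in every class, from -0.17 to -0.05, but with TMM scaling, which added 0.07 to 0.15 to every ratio of a class, it was above 0 in 4 classes, at up to 0.08. The median of the 10 genes was 0.35 in germ, 0.16 in granulosa, 0.24 in surface, 0.43 in stroma, 0.30 in endothelial and 0.60 in perivascular cells. The summed level gave log2 ratios of 0.41, 0.20, 0.23, 0.50, 0.34 and 0.67 in the same order of classes.

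At least a 1.5-fold higher level in DEHP_MLT was seen for 3 of the 10 genes in germ cells, where 1.2% of all genes compared were that much higher. In stroma it was 3 genes, against 1.25%, and in endothelial cells 2 genes, against 1.48%. In perivascular cells it was 6 genes, against 7.81%. In granulosa and surface cells it was 0 genes, against 0.742% and 1.4%. No glycolysis gene was 1.5-fold lower in any class, where 2.63% of all genes were lower in germ, 7.94% in granulosa, 11.5% in surface, 7.41% in stroma, 10.2% in endothelial and 13.5% in perivascular cells.

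Ldha had the largest ratio in germ cells, stroma and perivascular cells. In germ cells its level in DEHP_MLT was higher by 1.06 on the log2 scale, with an interval from 0.89 to 1.29. Across the settings run, this germ cell ratio lay between 0.66 and 1.16, so processing moved it beyond the counting interval. In perivascular cells Ldha was 4.40 in DEHP_MLT and 2.14 in MLT, a log2 ratio of 1.04. In stroma it was 2.60 and 1.46, a log2 ratio of 0.82. In endothelial cells it was 3.29 in DEHP_MLT and 2.16 in MLT (0.60). The ratio was smaller in granulosa (0.33) and surface cells (0.26). Ldha was higher in DEHP_MLT in 6 of 6 classes. Ldhb was lower in 6 of 6, except that its germ cell ratio of -0.08 became 0.03 with TMM scaling. Its log2 ratio was -0.80 in granulosa cells, where it had 5.73 UMIs per 10000 in DEHP_MLT and 9.97 in MLT.

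Tpi1 had the largest ratio of the 10 genes in granulosa (0.44), surface (0.31) and endothelial cells. It had 1.02 UMIs per 10000 in germ cells of DEHP_MLT and 0.583 in those of MLT, a log2 ratio of 0.80. Across the settings run, that ratio lay between 0.50 and 0.93, with the low end below 1.5-fold. Endothelial cells had 1.71 in DEHP_MLT and 0.938 in MLT (0.86), stroma 2.92 and 1.87 (0.64) and perivascular cells 3.32 and 2.20 (0.59). Eno1 passed 1.5-fold in germ cells (0.66), stroma (0.60) and perivascular cells (0.85). Aldoa (0.60), Gapdh (0.65) and Pgk1 (0.75) passed it in perivascular cells only. Gpi1 and Pkm were higher in DEHP_MLT in all 6 classes without passing it. Leaving out cells with MHC class II UMIs gave -0.020 for Gpi1 in endothelial cells and -0.010 for Pkm in granulosa cells. With TMM scaling both passed 1.5-fold in perivascular cells (0.61 for Gpi1 and 0.64 for Pkm), and Gpi1 also in stroma (0.59). The highest value of Gapdh in stroma over the settings run was 0.62, which is past 1.5-fold too.

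Slc2a1 and Hk1, which bring glucose into the cell and phosphorylate it, had ratios on both sides of 0. Hk1 was higher in DEHP_MLT in 3 of 6 classes, at 0.215 in DEHP_MLT and 0.183 in MLT for germ cells, 0.256 and 0.249 for granulosa and 0.108 and 0.106 for surface cells, with intervals of the ratio that held 0. Hk1 was 0.210 UMIs per 10000 in stroma of DEHP_MLT and 0.270 in that of MLT, a log2 ratio of -0.34, and -0.37 in endothelial cells, with counting intervals below 0. Slc2a1 was higher in DEHP_MLT in 5 of 6 classes, with ratios from -0.10 to 0.25, and all 6 intervals held 0. Hk2 was lower in DEHP_MLT in 6 of 6 classes, with log2 ratios from -0.96 to -0.24. Its interval lay below 0 in 2 of them, granulosa and surface cells, and held 0 in the others. Both extremes rest on few UMIs, 3 in DEHP_MLT and 11 in MLT for perivascular cells and 2 and 4 for endothelial cells.

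**Figure D4:**
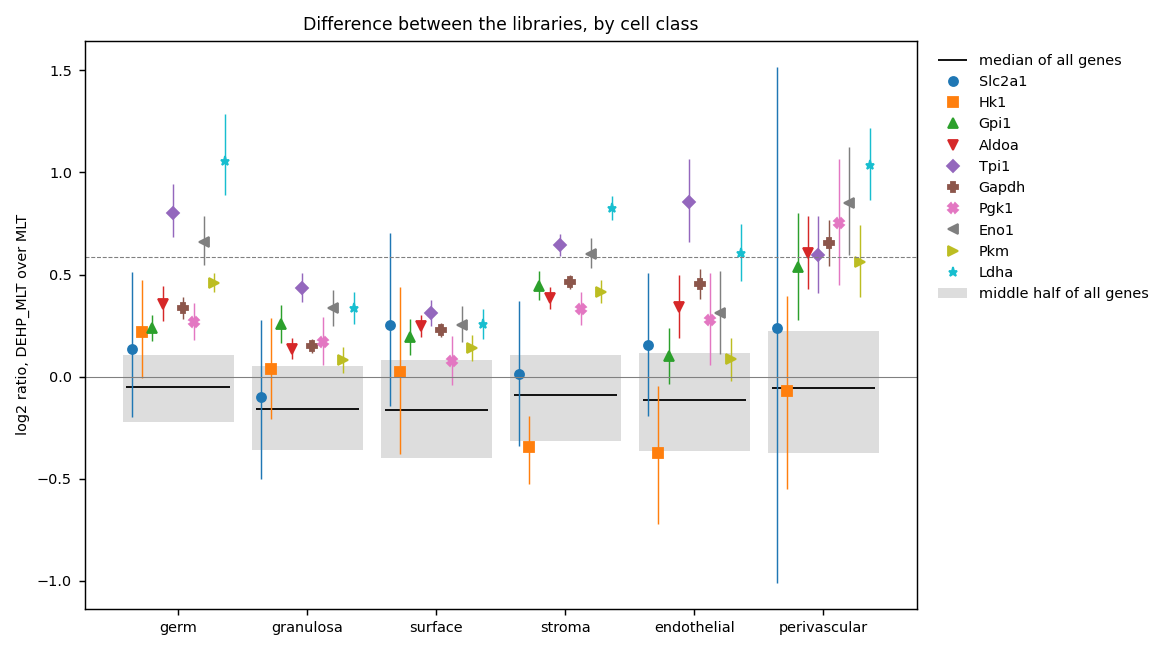
Log2 ratio of each gene, DEHP_MLT over MLT, in each cell class, with 95% counting intervals. Grey boxes span the middle of all genes from the lower to the upper quartile, black lines mark their median and the dashed line 1.5-fold. Ldha and Tpi1 stand highest in germ cells (1.06 and 0.80), and Hk1 lies below 0 in stroma and endothelial cells.

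Markers within the perivascular class differed between the libraries. Rgs5, a pericyte marker, had 11.5 UMIs per 10000 in DEHP_MLT and 7.00 in MLT, while Myh11, a smooth muscle gene, was 2.97 in DEHP_MLT and 7.47 in MLT. Cells were therefore split at 2 Rgs5 UMIs after thinning, a split chosen after these values were seen. Among cells with Rgs5, the summed glycolysis level was 32.1 in DEHP_MLT (79 cells) and 22.5 in MLT (62 cells). Among the rest it was 27.7 in DEHP_MLT (44 cells) and 17.4 in MLT (117 cells). Ldha was 5.44 in DEHP_MLT and 3.59 in MLT among cells with Rgs5, and 2.92 and 1.53 among the rest. The DEHP_MLT value was the higher on both sides of the split. Rgs5 and Myh11 also set the class, each side can still differ in make-up, and the part of make-up in the difference was not tested.

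Granulosa cells gave the least stable difference. Leaving out cells with MHC class II UMIs, of which MLT granulosa held 285 and DEHP_MLT 4, gave a summed log2 ratio of 0.093 in place of 0.20, with -0.063 for Aldoa and -0.010 for Pkm. Weighting every cell equally moved it to 0.43.

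Depth differed most in germ cells, where the median was 57189 UMIs per cell in DEHP_MLT and 10906 in MLT. Each cell was therefore thinned to 5000 UMIs, leaving out 89 germ cells of MLT that held fewer and none of DEHP_MLT. The 10 genes then had a median of 10 UMIs per germ cell in DEHP_MLT and 7 in MLT. It was 17 in DEHP_MLT and 14 in MLT for granulosa, 19 and 15 for surface, 10 and 8 for stroma, 16 and 11 for endothelial and 15 and 9 for perivascular cells. The share of thinned germ cells with an Ldha UMI was 24.5% in DEHP_MLT (21.4% to 27.8%) and 11.0% in MLT (6.40% to 17.2%). Without thinning it was 78.4% in DEHP_MLT and 43.0% in MLT. In thinned stroma cells it was 66.4% in DEHP_MLT and 49.4% in MLT.

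**Figure D5:**
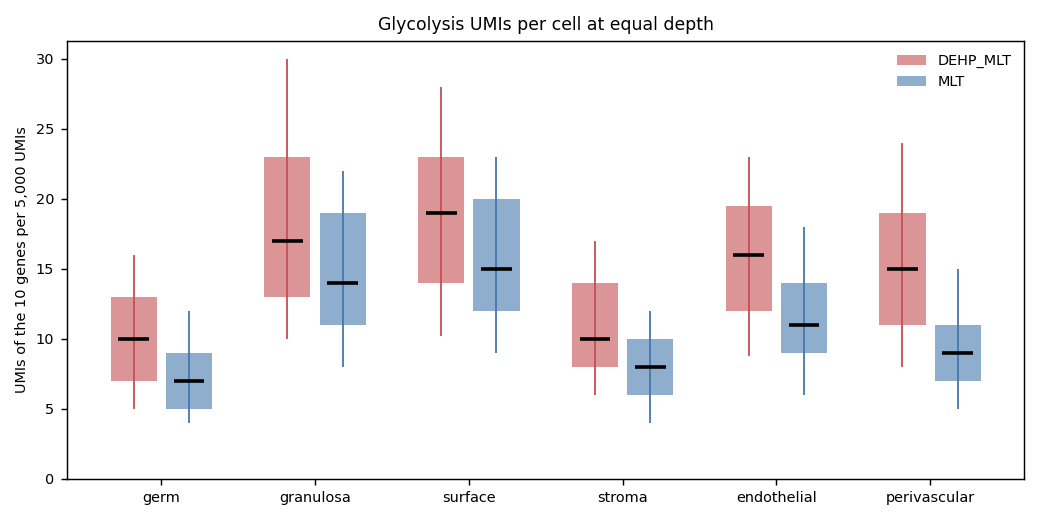
UMIs of the 10 genes per cell after thinning each cell to 5000 UMIs, by class, DEHP_MLT (red) left of MLT (blue). Boxes span the lower to the upper quartile, thin lines the 10th to the 90th percentile, and black bars mark the median. The median is higher in DEHP_MLT in each class, and the boxes overlap.

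Within germ cells, those with at least 3 UMIs of the zona pellucida genes Zp1, Zp2 and Zp3 (proteins of the oocyte coat) were set against the rest. Their summed glycolysis level was 21.7 against 18.9 in DEHP_MLT and 16.3 against 13.8 in MLT. Hk1 showed the widest gap in both libraries, 0.299 against 0.168 in DEHP_MLT and 0.223 against 0.153 in MLT. Ldhb was 20.6 against 15.0 in DEHP_MLT and 20.1 against 16.1 in MLT. Among stroma cells, those with cycling markers had a summed level of 21.8 against 23.0 in DEHP_MLT and 16.0 against 16.1 in MLT. Aldoa was lower in cycling cells of each of the 5 somatic classes in both libraries. In stroma it was 1.82 against 3.15 in DEHP_MLT and 1.40 against 2.41 in MLT.

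Genes that feed or branch from the pathway gave a mixed picture between the libraries. Slc16a1 (the lactate and pyruvate carrier MCT1) was lower in DEHP_MLT in 6 of 6 classes, with log2 ratios from -0.91 to -0.29. Its interval lay below 0 in 3 of them, granulosa, surface and stroma cells, and held 0 in the others. Both extremes rest on few UMIs, 8 in DEHP_MLT and 25 in MLT for perivascular cells and 14 and 25 for endothelial cells. Of 13 genes of pyruvate entry into mitochondria, 4 to 7 per class were at 0.5 UMIs per 10000 or more. Of 7 pentose phosphate genes, 3 or 4 per class were. Among these, 0 were 1.5-fold apart in any class. Over all genes, 0.742% to 7.81% were that much higher in a class and 2.63% to 13.5% lower. A count of 0 among so few genes is near these shares. Germ cells had the highest levels of Pdk3, a kinase that restrains pyruvate dehydrogenase (0.994 in DEHP_MLT and 1.05 in MLT), of Tigar, which lowers fructose 2,6-bisphosphate (0.335 and 0.371), and of Rpia, an enzyme of ribose 5-phosphate (1.17 and 0.798). Bsg, the chaperone of lactate carriers, was highest in surface cells, at 10.9 in DEHP_MLT and 12.2 in MLT.

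Hypoxia-response genes outside glycolysis were followed as a list of 20. Those at 0.5 UMIs per 10000 or more numbered 5 to 7 per class. Levels 1.5-fold higher in DEHP_MLT were found for 2, Epas1 and Ddit4, in perivascular cells, where 7.81% of all genes were that much higher. In the other classes it was 0, against 0.742% to 1.48% of all genes, and 0 of so few genes is near that share. The median log2 ratio of the listed genes at this level was 0.0020 in germ, -0.0047 in granulosa and -0.38 in surface cells. It was -0.10 in stroma, 0.04 in endothelial and 0.13 in perivascular cells. Higd1a, a mitochondrial protein induced by hypoxia, was higher in DEHP_MLT in 6 of 6 classes, with log2 ratios from 0.11 to 0.32. Its interval lay above 0 in 4 of them and held 0 in endothelial and perivascular cells. Bnip3, a mitophagy receptor, had 0.143 UMIs per 10000 in surface cells of DEHP_MLT and 0.0617 in those of MLT, a log2 ratio of 1.09. Hif1a itself was lower in DEHP_MLT in 6 of 6 classes, with log2 ratios from -0.54 to -0.21. Kdm3a, a HIF target, was lower in 6 of 6, or in 5 of 6 with TMM scaling. The Kdm3a interval lay below 0 in 3 classes, granulosa, surface and stroma. Ankrd37, another HIF target, was higher in DEHP_MLT in 6 of 6, with log2 ratios from 0.26 to 1.57. It had 0.396 UMIs per 10000 in endothelial cells of DEHP_MLT and 0.127 in those of MLT. Its interval held 0 in germ and perivascular cells, and its level was below 0.5 in every class.

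Across the 12 class and library points, Eno1 tracked the sum of the other 9 genes most closely (Pearson r = 0.94), followed by Gapdh (0.87) and Aldoa (0.83). Pkm (0.12), Gpi1 (0.11) and Hk1 (-0.27) did not track it. Among 5282 other genes, those most like the summed level included Tspan7 (r = 0.93), Wbp1 (0.92), Wbp1l (0.92), Grcc10 (0.92), Anxa2 (0.90), Ppdpf (0.89) and Sfxn3 (0.89). These correlations describe points that share libraries and depth, and carry no test.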

How the data were processed

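Single cells of mouse ovary were compared in 2 libraries, 1 per group. The authors deposited raw UMI counts per gene and barcode, with no normalization. Cell Ranger (no version given), Seurat 4.2.0 and mm9 are named in the submitters' processing notes. Barcodes under 500 genes or over 20% mitochondrial UMIs were dropped. A class needed a summed marker level of 0.3 of the pooled 98th percentile, 2 detected markers, and every other class below 0.5 of the top score. These levels were set after seeing the data, and the members and lists were chosen with earlier results of these data known. No doublet caller was run. Cells with markers of 2 classes (414 in DEHP_MLT and 466 in MLT) were left out, and doublets within a class remain.

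UMIs were summed per class and scaled to 10000. Each ratio sets DEHP_MLT over MLT on the log2 scale, with 0.01 added to each, so ratios of weak genes are understated. The background for ratios between libraries is genes at 0.5 per 10000 or more in either library. Intervals are exact (Poisson, Clopper-Pearson). The genes named are the 10 members, isozyme partners, and the extreme and most abundant of each list, plus the 8 genes most like the summed level, of which 1 is not reported here. Of 5 near-identical copies looked for, Eno1b and Aldoart2 were in both tables, and other pseudogene copies were not examined. Pgk2 and Pklr were not analysed here. The Rgs5 split was added after seeing values. Python 3.11.15, numpy 2.4.6, scipy 1.17.1, pandas 2.3.3 and edgeR 4.0.16 (for TMM factors only) were used. The ratios were also computed on simulated Poisson counts with known folds. Those counts hold no spread between cells or libraries, so they check the calculation only.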

Additional observations from a re-analysis of the deposited data

How the results depend on the processing

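Each result was recomputed under alternative settings, of which the stricter limit on other classes' markers was chosen after seeing the data. The summed log2 ratio, DEHP_MLT over MLT, stayed above 0 in all 6 classes under every setting run. For germ, granulosa, surface, stroma, endothelial and perivascular cells it was 0.51, 0.33, 0.33, 0.65, 0.45 and 0.76 with median-of-ratios scaling, and 0.51, 0.32, 0.34, 0.65, 0.46 and 0.75 with TMM. These scalings raised the median of all genes, to 0.06 in germ and 0.08 in stroma. Without mitochondrial, ribosomal protein and haemoglobin genes it was 0.44, 0.35, 0.37, 0.58 and 0.44 in the first 5 classes. With equal weight per cell it was 0.38 in germ, 0.43 in granulosa, 0.27 in surface and 0.46 in endothelial cells. Without MHC class II cells it was 0.093 in granulosa, 0.27 in surface and 0.53 in stroma. With a stricter marker level it was 0.36, 0.22, 0.28 and 0.56 in the first 4 classes, with cells of 2 classes added 0.25 in granulosa, and with the stricter limit on other markers 0.31 in germ, 0.16 in granulosa and 0.20 in surface cells. Counts of genes 1.5-fold higher in DEHP_MLT became 5 under both scalings and 2 with the stricter limit in stroma, 1 in endothelial cells with a common UMI floor or a stricter marker level, and 1 (without mitochondrial, ribosomal protein and haemoglobin genes) or 2 (equal weight) in granulosa. In germ cells they were 2 with equal weight or the stricter limit. In perivascular cells they were 8 under both scalings or the reduced total, 7 with equal weight, 5 with cells of 2 classes added, and 4 with a stricter marker level, the stricter limit or without MHC class II cells. At 2-fold they were 1 in germ, 0 in stroma, 0 in endothelial and 1 in perivascular cells. Between classes, germ over granulosa higher became 0 with equal weight, a stricter marker level, the stricter limit, or the reduced total. Germ over stroma became 5 lower with median-of-ratios and 4 higher with equal weight, endothelial over stroma 0 lower with equal weight, and perivascular over stroma 2 higher with the stricter limit. Ratios that took the other sign with an interval excluding 0 in the reported value were Aldoa (-0.063) and Pkm (-0.010) in granulosa between libraries without MHC class II cells, Hk1 in germ over granulosa (0.030, median-of-ratios, DEHP_MLT), the summed level in germ over stroma (0.019, equal weight, MLT), and Gapdh (-0.055) and Eno1 (-0.021) in surface over granulosa (equal weight, DEHP_MLT). Others of this kind were Aldoa in surface over granulosa (0.052, median-of-ratios, MLT), Gapdh in surface over granulosa (-0.0047, stricter marker level, MLT) and Aldoa in endothelial over stroma (0.033, equal weight, DEHP_MLT). Between libraries, ratios near 0 whose interval held 0 also took the other sign under at least 1 setting. Over the settings run, the lowest value was -0.23 for Hk1 in germ, -0.043 in granulosa and -0.070 in surface cells, and the highest 0.0066 in perivascular cells. For Slc2a1 the lowest was -0.11 in germ, -0.033 in stroma and -0.11 in perivascular cells, and the highest 0.046 in granulosa. The lowest was -0.020 for Gpi1 in endothelial and -0.025 for Pgk1 in surface cells. Between classes, Slc2a1, Hk1, Gpi1, Aldoa, Pgk1 and Eno1 had such changes of sign. The cause was not tested. No paired analysis was possible because each group is 1 library with no replicate number. Depth limits Slc2a1 and Hk1, whose counting intervals are wide.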

Other observations

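Classes outside the 6 gave the extremes of the summed glycolysis level. Immune cells had 56.0 UMIs per 10000 in DEHP_MLT (81 cells) and 70.2 in MLT (178 cells), the reverse of the direction in the 6 ovarian classes. Erythroid cells had 5.93 in DEHP_MLT (536 cells) and 3.60 in MLT (34 cells).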
